A study of Mus musculus with 6 samples.

Results

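Phase II conjugation enzymes attach a glutathione, glucuronic acid or sulfonate group to drugs, steroids, bilirubin and reactive lipid products, which makes them water-soluble and ready for export. The genes described here are those whose mouse symbol begins with Gst and a class letter (cytosolic and mitochondrial glutathione S-transferases), with Ugt and a digit (UDP-glycosyltransferases) or with Sult and a digit (sulfotransferases). Of the 22064 gene IDs in the libraries 65 met this rule, and 56 of these had a value: 23 Gst, 20 Ugt and 13 Sult genes. Expression was measured by RNA-seq as FPKM, fragment counts corrected for transcript length and library size, in renal glomeruli, the capillary tufts that filter blood. All mice were of the C57BL/6J strain and had diabetic kidney disease. The study set 3 libraries from PR3 KO mice, which lack proteinase 3, a neutrophil serine protease encoded by Prtn3, against 3 libraries from WT mice. Both genotypes were diabetic, so no healthy group was compared. The labels give neither age, sex, the way diabetes was brought about, nor how the knockout was made, and they do not say whether each library came from a separate animal. The p-values below therefore measure the spread between these libraries, which may be technical.

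Glutathione S-transferases join glutathione to electrophiles, and single classes also serve in amino acid breakdown and steroid synthesis. UDP-glycosyltransferases are enzymes of the endoplasmic reticulum that move a sugar, mostly glucuronic acid from UDP-glucuronate, onto their substrates. Cytosolic sulfotransferases take sulfonate from the donor PAPS. In the kidney many of these enzymes, though not every class, are known from the proximal tubule. This is the nephron segment next to the glomerulus that takes up and secretes organic anions.

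Prtn3 itself was read at 0.14, 0 and 0.07 FPKM in PR3 KO libraries 1, 2 and 3, against 0.46, 0.21 and 0.22 FPKM in WT libraries 1, 2 and 3. These levels are near the lowest steps in the files, so they are a weak check of the genotype labels. Summed FPKM per library ran from 566772 to 604697 in PR3 KO and from 494316 to 543564 in WT, and 16473 to 16965 genes were above 0 in a library. Total counts are not in the files used here. If the commonest low value of short olfactory receptor genes (0.07 FPKM, or 0.08 in WT 1) stands for 1 fragment, a library held about 13269639 to 15165302 fragments. The labels give no sex, but 4 Y-linked genes were above 0 in every library (lowest 2.14 FPKM), so each held male RNA. Their sums were 31.7 to 33.9 FPKM in PR3 KO and 55.5 to 58.2 FPKM in WT. Of the 4 genes 3 fell, where 41.1% of all genes fell. The label of the tissue was set against marker genes. Podocyte markers, which define the filtering cells of the glomerulus, were present in every library, with summed levels of 427 to 681 FPKM in PR3 KO and 759 to 1268 FPKM in WT. The 30 proximal tubule markers summed to 56603 to 73688 FPKM in PR3 KO and 10882 to 28492 FPKM in WT, and none was at 0 in any library. In PR3 KO 22 of them rose and 1 (Cyp7b1) fell, where 11.7% of all genes rose and 41.1% fell. Cyp7b1 averaged 0.58 FPKM in PR3 KO and 1.46 FPKM in WT. It passed the filter of a mean of 1 FPKM only through WT, so a lower value in PR3 KO was built into its selection. Kap, an androgen-regulated tubule gene, made up most of the sum in every library but WT 2, where it was at 5248 of 10882 FPKM. Without Kap the sums were 14463 to 16098 FPKM in PR3 KO and 5635 to 9983 FPKM in WT. Of the glomerular cell markers tested, 7 of 15 podocyte, 15 of 15 endothelial and 6 of 10 mesangial and smooth muscle genes fell, and 0 rose, where 41.1% of all genes fell; the podocyte count is near that share. In such bulk samples fewer cells of a type and less RNA per cell cannot be told apart.

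Most of what moved among the conjugation genes was higher in PR3 KO. Of the 37 members with a mean of at least 1 FPKM, 15 rose, 3 fell and 19 did not pass the test, which was limma on log2(FPKM + 1) with Benjamini-Hochberg adjustment over 12388 genes at 0.05. Among all genes tested 11.7% rose and 41.1% fell, 52.8% in either direction. The members' median log2 fold change, PR3 KO over WT, was 0.43, and that of all genes was -0.26. With median-of-ratios scaling, which brings the median of all genes to 0.03, 18 members rose and 0 fell (25.4% and 22.3% of all genes), and the members' median was 0.76. No member that passed the test changed direction under that scaling or with equal FPKM sums, but none of the 3 falls passed after median-of-ratios scaling. Without PR3 KO 1 the count of risen members was 9, and the count of fallen ones was 1 without PR3 KO 1 and 1 without WT 3. The counts over all 12388 genes moved too. With all libraries 1454 rose and 5091 fell. Without PR3 KO 1 917 rose and 3837 fell, and without WT 3 1225 rose and 4681 fell.

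**Figure D1:**
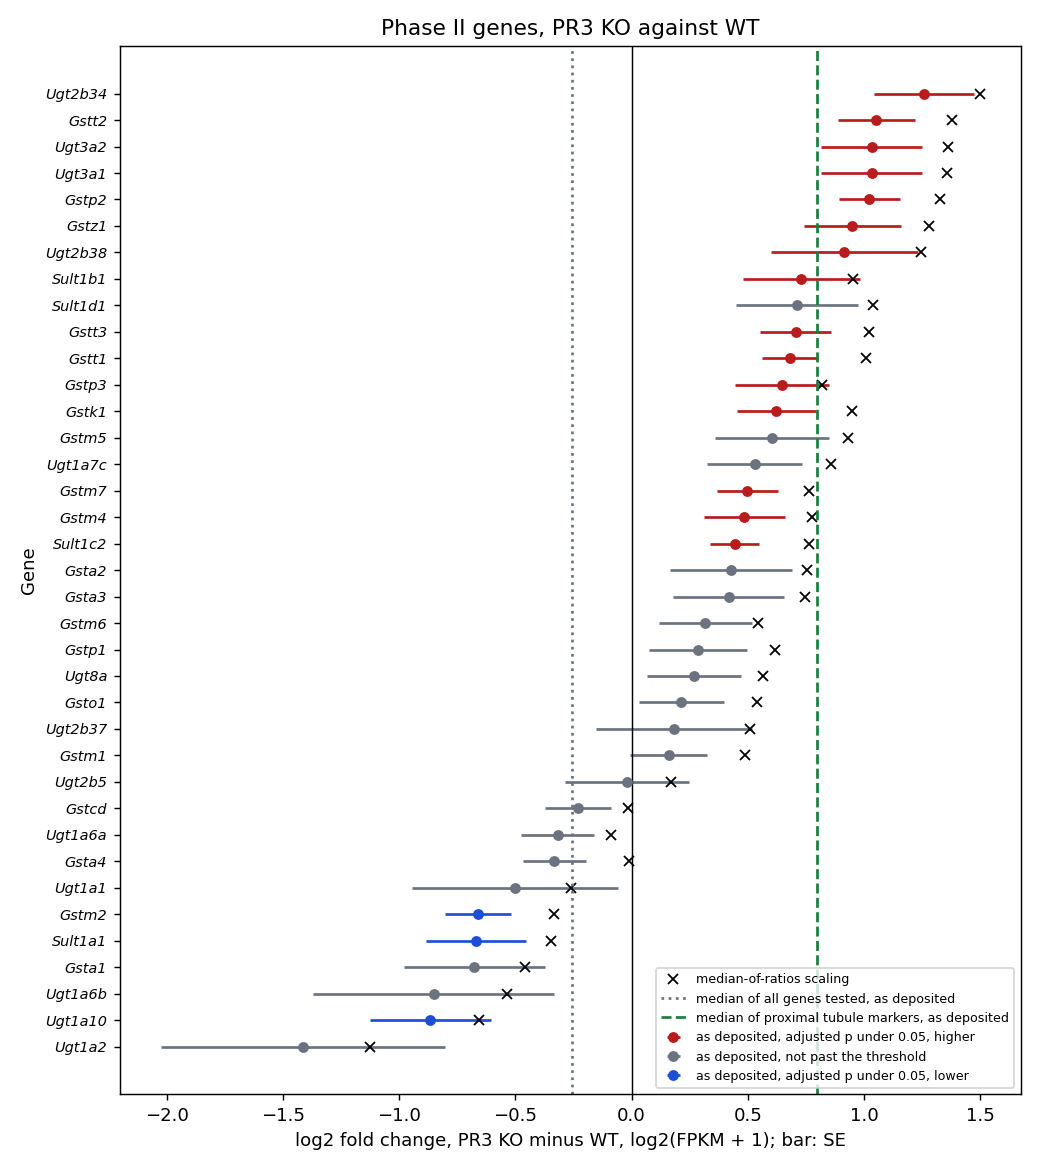
Log2 fold change on the log2(FPKM + 1) scale, PR3 KO minus WT, of the 37 tested members ordered by size, with bars for the standard error from limma, crosses for the values under median-of-ratios scaling, and lines at 0, at the median of all genes (dotted, -0.26) and at the median of the proximal tubule markers (dashed, 0.80). Red points rose, blue points fell and grey points did not pass; Ugt2b34 is highest at 1.26 and passed, and Ugt1a2 is lowest at -1.41 and did not.

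The theta class rose as a whole: all 3 tested genes were higher in every PR3 KO library than in any WT library. The same held for 16% of all genes tested. Theta enzymes act on small halogenated and sulfate-bearing electrophiles, and their genes lie side by side on chromosome 10. Gstt1 (chr10:75783813-75798584, GRCm38.p6) was at 102, 111 and 126 FPKM in PR3 KO libraries 1, 2 and 3, against 66.26, 68.74 and 74.65 FPKM in WT libraries 1, 2 and 3. Gstt2 (chr10:75831842-75837419) was at 151, 103 and 109 FPKM in PR3 KO, against 64.87, 52.16 and 54.64 FPKM in WT. Gstt3 (chr10:75774117-75781422) was at 41.86, 27.99 and 28.94 FPKM in PR3 KO, against 19.27, 19.94 and 19.17 FPKM in WT. The WT libraries lay close together for all 3 genes, while PR3 KO 1 was the high library for Gstt2 and Gstt3. The log2 fold changes were 0.68 (SE 0.12, limma adjusted p = 0.00289) for Gstt1, 1.05 (SE 0.17, adjusted p = 0.00202) for Gstt2 and 0.71 (SE 0.15, adjusted p = 0.00663) for Gstt3. Each call held with any one library left out. Gstt4, the remaining theta gene, stayed at or below 0.16 FPKM in every library. The cluster lies 4.04 Mb from Prtn3 on the same chromosome. Over the 50 tested genes from Gstt3 through Prtn3, 11 rose and 16 fell, and without the theta genes 8 of 47 rose and 16 fell, with a median log2 fold change of -0.07. Among all genes 11.7% rose and 41.1% fell.

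In the pi class the abundant gene and its near-copy differed in outcome. Pi enzymes conjugate a wide range of electrophiles, and Gstp1 is the major form in most tissues. Gstp1 (chr19:4035411-4037912) was at 580, 411 and 478 FPKM in PR3 KO, against 409, 307 and 502 FPKM in WT. The genotypes overlapped, and its log2 fold change of 0.29 did not pass (limma adjusted p = 0.278). Gstp2 (chr19:4040288-4042221) was at 22.97, 18.01 and 16.99 FPKM in PR3 KO, against 8.48, 8.44 and 9.92 FPKM in WT. Every PR3 KO library was above every WT library, by a log2 fold change of 1.02 (SE 0.13, limma adjusted p = 0.00106), which held with any one library left out. Gstp3 (chr19:4057470-4059605), at 1.88 ± 0.54 FPKM in PR3 KO and 0.847 ± 0.41 FPKM in WT (SD, n = 3 each), rose by 0.65 (SE 0.20, adjusted p = 0.0294) although PR3 KO 2 at 1.29 FPKM was below WT 3 at 1.32 FPKM. It passed the filter of 1 FPKM only through PR3 KO, so a higher value there was built into its selection, and it is 1 of the 15 risen members counted above. That call was lost without PR3 KO 1, PR3 KO 3, WT 1 or WT 2, with log2 fold changes of 0.53 to 0.61 and adjusted p-values of 0.0615 to 0.0977.

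The Gstp2 value depends on how fragments were divided between Gstp1 and Gstp2. Their coding sequences of 630 bases are 98.1% identical and differ at 12 bases, with a longest identical run of 300 bases. The stretch at coding bases 271 to 330 is shown because it holds 5 of those 12 differing bases. It is read 5′ to 3′ along the transcript from GENCODE M21 (GRCm38, minus strand), Gstp1 at chr19:4036694-4036753 and Gstp2 at chr19:4040988-4041047, and capitals mark the bases that differ.
Gstp1: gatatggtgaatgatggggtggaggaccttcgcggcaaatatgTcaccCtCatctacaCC
Gstp2: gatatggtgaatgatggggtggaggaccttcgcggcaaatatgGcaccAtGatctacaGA
Of the Gstp2 transcript 72.6% lay in runs of 50 bases found in another gene's transcript, and of Gstp1 62.3%. As a share of the summed pi class FPKM, which rests on the same division, Gstp2 made up 3.80%, 4.19% and 3.41% in PR3 KO libraries 1, 2 and 3, against 2.03%, 2.67% and 1.93% in WT libraries 1, 2 and 3. These shares did not overlap (exact permutation test, two-sided p = 0.1, the floor for 3 libraries against 3).

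**Figure D2:**
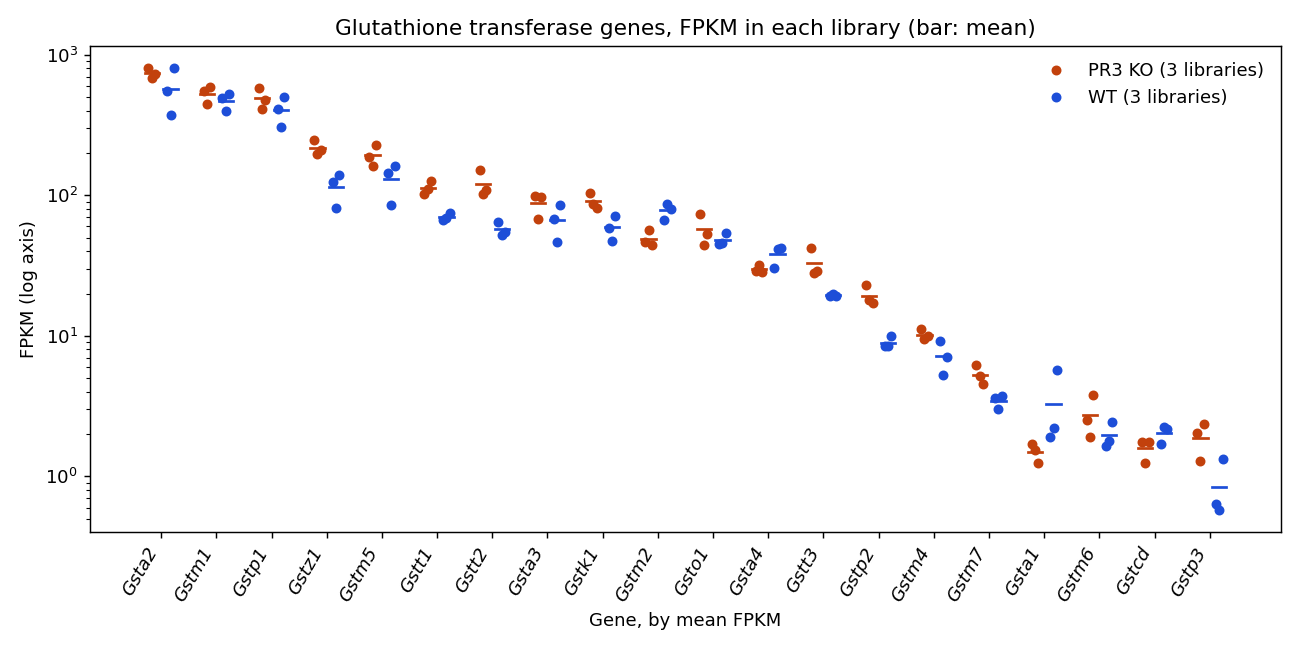
FPKM (log axis) of the 20 tested glutathione S-transferase genes, ordered by mean, with a point for each library, PR3 KO left of WT, and a bar at the group mean. The theta genes, Gstz1 and Gstp2 are separated by genotype with PR3 KO above, Gstm2 is separated with PR3 KO below, and Gsta2 and Gsta3 overlap.

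The mu class, which conjugates aromatic and epoxide electrophiles, moved in both directions: Gstm4 and Gstm7 rose, Gstm2 fell, and Gstm1, Gstm5 and Gstm6 did not pass. Gstm1 (chr3:108012250-108017973), the most abundant mu gene, was at 550, 444 and 586 FPKM in PR3 KO, against 493, 398 and 523 FPKM in WT. These ranges overlapped, with a log2 fold change of 0.16 (limma adjusted p = 0.437), and its sign turned with equal FPKM sums. Gstm2 (chr3:107981702-107986420) was at 46.45, 56.71 and 44.00 FPKM in PR3 KO, against 66.98, 87.12 and 80.24 FPKM in WT. It was lower in all PR3 KO libraries, with a log2 fold change of -0.66 (SE 0.14, adjusted p = 0.00656) that held with any one library left out, but with median-of-ratios scaling it was -0.34 (adjusted p = 0.0731). Gstm7 (chr3:107926334-107931877) was at 6.16, 5.22 and 4.54 FPKM in PR3 KO, against 3.61, 3.03 and 3.71 FPKM in WT, a log2 fold change of 0.50 (SE 0.13, adjusted p = 0.0153). Its groups did not overlap, and without PR3 KO 1 the call was lost (0.40, adjusted p = 0.0575). Gstm4, at 10.2 ± 0.84 FPKM in PR3 KO and 7.14 ± 2.0 FPKM in WT (SD, n = 3 each), rose by 0.49 (SE 0.17, adjusted p = 0.0456 from limma), and leaving out any library but WT 1 ended the call, with 0.31 to 0.53 and adjusted p-values of 0.0710 to 0.133. Equal FPKM sums (0.34, adjusted p = 0.113) and limma without trend and robust (adjusted p = 0.0502) ended it too. Gstm5, at 193 ± 33 FPKM in PR3 KO and 130 ± 40 FPKM in WT, did not overlap yet did not pass (0.60, adjusted p = 0.0701). It passed without WT 3 (0.79, adjusted p = 0.0437), and median-of-ratios scaling also brought it past (0.93, adjusted p = 0.0307). Without WT 2 it was 0.33 (adjusted p = 0.0968), and with equal FPKM sums 0.44 (adjusted p = 0.116).

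The make-up of the mu class can be read within each library, where scaling cancels out. Gstm2 held 5.77%, 8.34% and 5.02% of the mu class FPKM in PR3 KO, against 9.33%, 15.01% and 10.3% in WT. Gstm5 held 23.5%, 23.9% and 26.0% in PR3 KO, against 20.02%, 14.7% and 20.8% in WT. Neither share overlapped between genotypes (exact two-sided permutation p = 0.1 for each, the smallest possible), whereas the Gstm1 share did (exact p = 0.2). These are among 8 such shares, chosen after the values were seen.

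No alpha class gene passed the test. Alpha enzymes bind bilirubin and steroids and reduce lipid peroxides. Gsta2 (chr9:78331018-78347192), the most abundant of all members, was at 801, 678 and 735 FPKM in PR3 KO, against 548, 372 and 805 FPKM in WT. WT 3 was the highest of the 6 libraries and WT 2 the lowest, so the groups overlapped, and the log2 fold change of 0.43 had an adjusted p of 0.197 in limma. Without WT 3 it was 0.70 and passed (adjusted p = 0.0300), and without WT 2 it was 0.15 (adjusted p = 0.484). Gsta3, which in mouse also detoxifies aflatoxin, was at 87.7 ± 18 FPKM in PR3 KO and 66.4 ± 19 FPKM in WT (SD, n = 3 each; log2 fold change 0.42, adjusted p = 0.170). Gsta4, which conjugates the lipid aldehyde hydroxynonenal, was at 29.7 ± 2.0 FPKM in PR3 KO and 38.0 ± 6.4 FPKM in WT (-0.33, adjusted p = 0.0714). Gsta1 was at 1.497 ± 0.24 FPKM in PR3 KO and 3.29 ± 2.1 FPKM in WT (-0.68, adjusted p = 0.0919), and 89.7% of its transcript lay in runs shared with another gene. Both Gsta1 and Gsta4 passed as lower without WT 1 (-0.90, adjusted p = 0.0414, and -0.48, adjusted p = 0.0104) and with equal FPKM sums (-0.79, adjusted p = 0.0424, and -0.49, adjusted p = 0.0183). Without WT 3 the Gsta1 value was -0.29 (adjusted p = 0.138), and under median-of-ratios scaling the Gsta4 value was -0.011 (adjusted p = 0.952).

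Among the remaining glutathione S-transferases, Gstz1 and Gstk1 rose. Gstz1 (chr12:87147161-87164723), maleylacetoacetate isomerase of tyrosine breakdown, was at 246, 197 and 209 FPKM in PR3 KO, against 123, 80.6 and 139 FPKM in WT. The lowest PR3 KO library was well above the highest WT library, and the log2 fold change was 0.95 (SE 0.21, limma adjusted p = 0.00710), a call that held with any one library left out. Gstk1 (chr6:42245935-42250441), the kappa enzyme of mitochondria and peroxisomes, was at 104.6, 86.58 and 81.20 FPKM in PR3 KO, against 58.28, 47.30 and 71.57 FPKM in WT. It was higher in every PR3 KO library, by 0.62 (SE 0.17, adjusted p = 0.0168), and without PR3 KO 1 it did not pass (0.52, adjusted p = 0.0612). Gsto1, a thioltransferase and dehydroascorbate reductase, was at 57.1 ± 15 FPKM in PR3 KO and 48.2 ± 5.2 FPKM in WT, and Gstcd was at 1.59 ± 0.29 FPKM in PR3 KO and 2.04 ± 0.30 FPKM in WT (SD, n = 3 each). Neither passed.

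The Ugt1a locus (chr1:88055411-88220002) is one gene complex in which each enzyme has its own first exon, spliced to a common set of later exons. In these libraries it was mostly Ugt1a7c, and the weight of Ugt1a7c within the locus was greater in PR3 KO. Ugt1a7c was at 216, 199 and 252 FPKM in PR3 KO, against 198, 114 and 159 FPKM in WT. The groups only just failed to overlap, with PR3 KO 2 next to WT 1, and the log2 fold change of 0.53 did not pass (limma adjusted p = 0.0594). It passed without WT 1 (0.71, adjusted p = 0.0193), as it did after median-of-ratios scaling (0.86, adjusted p = 0.0230), and was 0.32 without WT 2 (adjusted p = 0.0872). Ugt1a10 (chr1:88055411-88220002) was at 1.30, 0.65 and 1.80 FPKM in PR3 KO, against 3.59, 1.86 and 3.91 FPKM in WT. It was lower in all PR3 KO libraries, by a log2 fold change of -0.87 (SE 0.26, adjusted p = 0.0246), although PR3 KO 3 and WT 2 nearly met. The call was lost without PR3 KO 1, PR3 KO 2, WT 1 or WT 3 (-0.90 to -0.66, adjusted p = 0.0610 to 0.0800), and median-of-ratios scaling ended it too (-0.66, adjusted p = 0.0859).

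The other 4 tested Ugt1a genes had lower means in PR3 KO, and none passed. Ugt1a6b was at 22.66, 21.81 and 17.46 FPKM in PR3 KO, against 39.22, 16.74 and 80.95 FPKM in WT (log2 fold change -0.85, limma adjusted p = 0.206). Ugt1a2 was at 4.60, 1.92 and 10.91 FPKM in PR3 KO, against 8.40, 12.21 and 28.67 FPKM in WT (-1.41, adjusted p = 0.0940). In both genes WT 3 was far above the other libraries. Ugt1a6b passed as lower without WT 2 (-1.42, adjusted p = 0.0117), and Ugt1a2 without PR3 KO 3 (-1.93, adjusted p = 0.0324). The Ugt1a6b value was -0.31 without WT 3 (adjusted p = 0.449), and the Ugt1a2 value -0.92 without PR3 KO 2 (adjusted p = 0.256). Ugt1a1, the bilirubin-conjugating form, was at 2.85 ± 2.1 FPKM in PR3 KO and 4.06 ± 1.6 FPKM in WT, and Ugt1a6a at 1.99 ± 0.44 FPKM in PR3 KO and 2.72 ± 0.46 FPKM in WT (SD, n = 3 each). Ugt1a7c accounted for 86.7%, 88.0% and 87.0% of the locus FPKM in PR3 KO libraries 1, 2 and 3, against 77.1%, 75.8% and 56.7% in WT libraries 1, 2 and 3. Ugt1a6b accounted for 9.11%, 9.63% and 6.03% in PR3 KO, against 15.3%, 11.1% and 28.9% in WT. Both shares were separated by genotype (p = 0.1, exact permutation, again the floor), and the Ugt1a2 share was not (exact p = 0.2).

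The sequences show what a fragment can and cannot tell at this locus. The first 60 coding bases of the own exon of the most abundant form, of the form that fell and of Ugt1a2 are given with the first 60 bases of the common second exon, all on the plus strand of GRCm38 chromosome 1 from GENCODE M21. They start at bases 88095121 (Ugt1a7c), 88055482 (Ugt1a10), 88200637 (Ugt1a2) and 88215044 (common exon).
Ugt1a7c: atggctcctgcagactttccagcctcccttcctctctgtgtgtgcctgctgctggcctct
Ugt1a10: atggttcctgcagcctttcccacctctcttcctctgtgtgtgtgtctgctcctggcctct
Ugt1a2: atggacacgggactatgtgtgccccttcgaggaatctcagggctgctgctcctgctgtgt
Ugt1a common exon: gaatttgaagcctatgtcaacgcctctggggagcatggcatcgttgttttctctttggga
All 6 tested Ugt1a genes share 735 identical coding bases in the common exons, while own first exons supply 855 to 870 coding bases. A fragment from the common exons fits every form, and the shares above rest on how the authors' quantification divided them. Ugt1a10 and Ugt1a7c are 89.9% identical over their coding sequence, and Ugt1a6a and Ugt1a6b 98.4%.

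**Figure D3:**
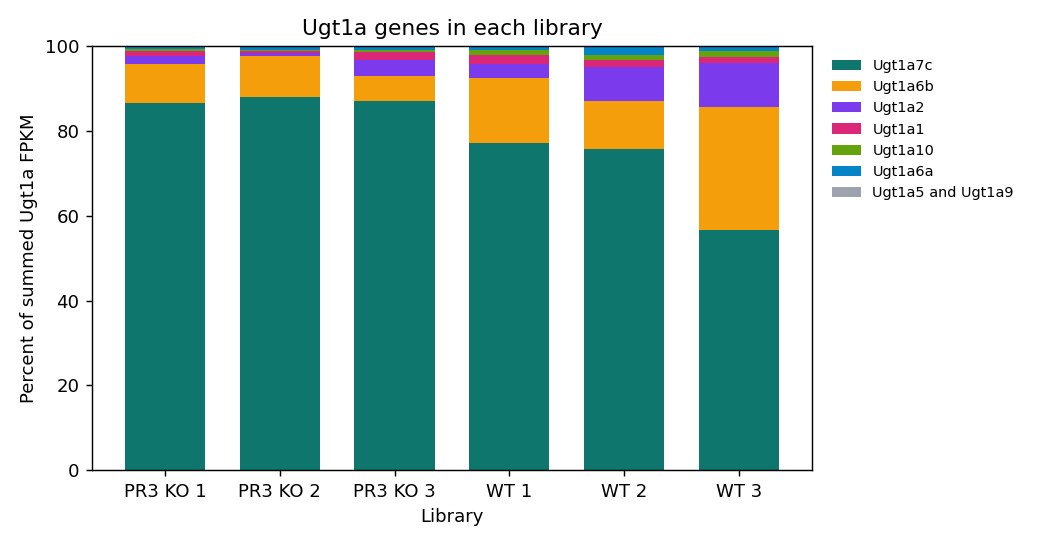
Stacked bars of the percent of the summed Ugt1a FPKM taken by each Ugt1a gene in each library, PR3 KO left of WT. Ugt1a7c takes 86.7% to 88.0% in PR3 KO and 56.7% to 77.1% in WT.

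Ugt2 enzymes glucuronidate steroids, bile acids and fatty acid products. Ugt2b38 and Ugt2b34 rose, and Ugt2b37 and Ugt2b5 did not pass. Ugt2b38 (chr5:87409939-87424203) was at 389, 473 and 420 FPKM in PR3 KO, against 364, 137 and 229 FPKM in WT. All PR3 KO libraries were above all WT libraries, but WT 1 was nearer to PR3 KO 1 than to the other WT libraries. The log2 fold change was 0.92 (SE 0.32, limma adjusted p = 0.0412), and it missed the threshold without any one of the PR3 KO libraries or WT 3 (0.84 to 0.98, adjusted p = 0.0866 to 0.111) and with equal FPKM sums (0.75, adjusted p = 0.0593). Without WT 2 it passed at 0.56 (adjusted p = 0.0455). Ugt2b34 (chr5:86889770-86906937) was at 4.22, 4.70 and 8.27 FPKM in PR3 KO, against 1.87, 1.86 and 1.46 FPKM in WT. It had the largest rise of any member, 1.26 (SE 0.22, adjusted p = 0.00272), it kept its call with any one library left out, and 2.07% of its transcript was shared with other genes. Ugt2b37 was at 119.5, 126 and 112 FPKM in PR3 KO, against 162, 57.42 and 124 FPKM in WT, with PR3 KO inside the WT range. Ugt2b5 was at 1.55 ± 0.079 FPKM in PR3 KO and 1.72 ± 1.0 FPKM in WT (SD, n = 3 each), and its sign turned with median-of-ratios scaling. Within the Ugt2b genes the share of Ugt2b38 was 75.6%, 78.1% and 77.5% in PR3 KO, against 68.6%, 69.5% and 64.2% in WT (p = 0.1 by exact permutation, the floor). Ugt2b38 and Ugt2b5 are 97.0% identical in coding sequence.

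The Ugt3 genes, whose human counterparts use sugars other than glucuronate, rose together. Ugt3a2 (chr15:9335551-9370955) was at 473, 454 and 481 FPKM in PR3 KO, against 309, 165 and 235 FPKM in WT. The PR3 KO libraries agreed closely and all lay above the WT libraries, with a log2 fold change of 1.03 (SE 0.22, limma adjusted p = 0.00601). Ugt3a1 (chr15:9279822-9315038) was at 89.24, 75.72 and 89.09 FPKM in PR3 KO, against 51.45, 28.05 and 46.82 FPKM in WT, also a change of 1.03 (SE 0.22, adjusted p = 0.00616). WT 2 was lowest for both. Both calls held with any one library left out. The 2 coding sequences are 93.2% identical, and 9.39% of either transcript lay in runs shared with another gene. Ugt8a, which adds galactose to ceramide, was at 10.5 ± 1.3 FPKM in PR3 KO and 8.77 ± 2.6 FPKM in WT (SD, n = 3 each) and did not pass.

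**Figure D4:**
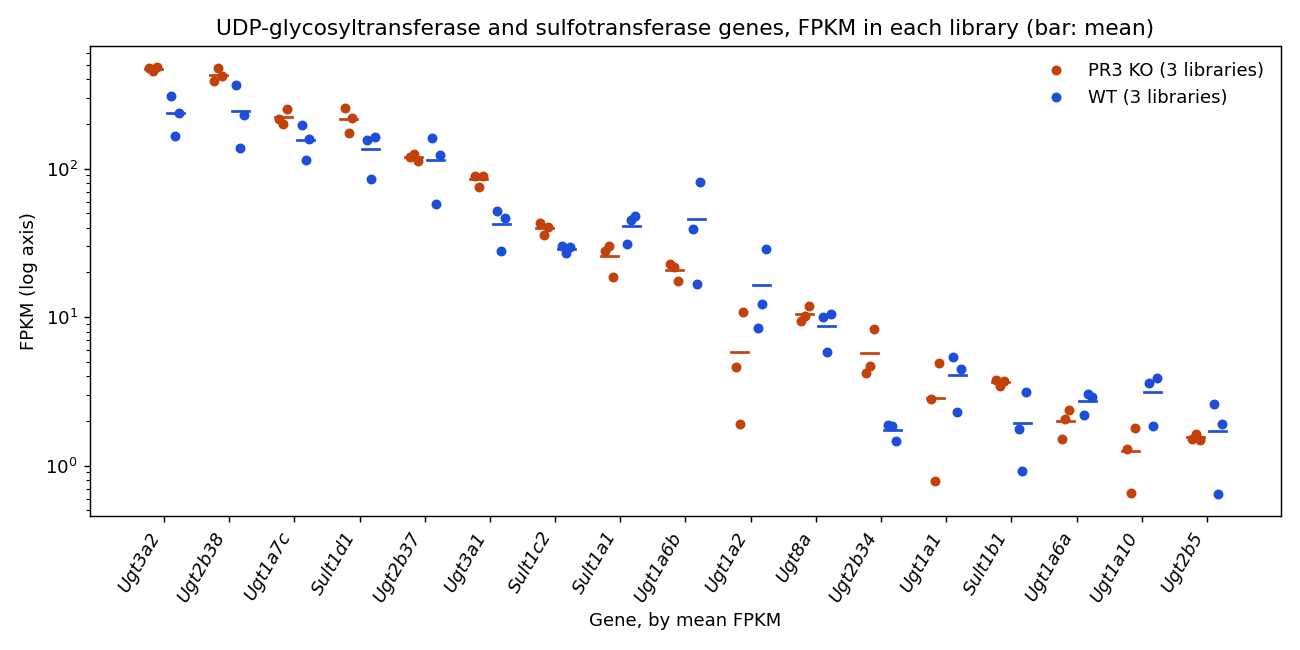
FPKM (log axis) of the 13 UDP-glycosyltransferase and 4 sulfotransferase genes tested, ordered by mean, with a point for each library, PR3 KO left of WT, and a bar at the group mean. Ugt3a1, Ugt3a2, Ugt2b34 and Sult1c2 are separated with PR3 KO above, and Ugt1a10 and Sult1a1 with PR3 KO below.

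All 4 tested sulfotransferases were of the Sult1 family, and none overlapped between genotypes, where 65.1% of all genes tested did not overlap. Sult1d1 (chr5:87554650-87569006), which in mouse sulfates catecholamines, was the most abundant at 254, 174 and 219 FPKM in PR3 KO, against 155, 85.5 and 165 FPKM in WT. Its log2 fold change of 0.71 (SE 0.26) was just outside the threshold (limma adjusted p = 0.0515). It passed without PR3 KO 2, WT 1 or WT 3 (0.84 to 0.88, adjusted p = 0.0426 to 0.0489), and under median-of-ratios scaling (1.04, adjusted p = 0.0273), and was 0.41 without WT 2 (adjusted p = 0.0566). Sult1c2 (chr17:53829637-53845958) was at 43.00, 35.65 and 40.66 FPKM in PR3 KO, against 30.29, 26.92 and 29.57 FPKM in WT. It rose by 0.44 (SE 0.11, adjusted p = 0.00976), the smallest rise among the members called, and kept the call with any one library left out and, at 0.28, with equal FPKM sums (adjusted p = 0.0453). Sult1b1 (chr5:87513327-87538195), which sulfates thyroid hormones, was at 3.76, 3.43 and 3.74 FPKM in PR3 KO, against 1.77, 0.92 and 3.11 FPKM in WT, a change of 0.73 (SE 0.25, adjusted p = 0.0397). Leaving out any library but WT 3 ended that call (0.46 to 0.76, adjusted p = 0.0567 to 0.104), as did equal FPKM sums (0.62, adjusted p = 0.0529). Sult1a1 (chr7:126672865-126690443), the main phenol sulfotransferase, was at 28.03, 30.24 and 18.74 FPKM in PR3 KO, against 31.04, 45.01 and 47.80 FPKM in WT. It was lower in PR3 KO, with PR3 KO 2 close to WT 1, by -0.67 (SE 0.22, adjusted p = 0.0328). That call was lost without PR3 KO 1, PR3 KO 3, WT 2 or WT 3 (-0.74 to -0.47, adjusted p = 0.0588 to 0.101), and also under median-of-ratios scaling (-0.35, adjusted p = 0.218).

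Taking the families as sums over all members with a value, only the Ugt sum was separated by genotype. It was 1336, 1372 and 1414 FPKM in PR3 KO libraries 1, 2 and 3, against 1158, 547 and 928 FPKM in WT libraries 1, 2 and 3. The Gst sum was 3060, 2461 and 2846 FPKM in PR3 KO, against 2164, 1675 and 2645 FPKM in WT. The Sult sum was 330, 244 and 283 FPKM in PR3 KO, against 220, 160 and 246 FPKM in WT. WT 2 was the low library in each. By gene, 21 of 37 members did not overlap, 17 higher and 4 lower in PR3 KO. Among all genes tested 16% were higher and 49.1% lower in PR3 KO without overlap. Expression spanned a wide range, with 10 members averaging over 100 FPKM and 24 over 10 FPKM.

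The members under the filter were close to the limit of detection. Just inside it were Gstcd at a mean of 1.81 FPKM over the 6 libraries, Ugt2b5 at 1.64 FPKM and Gstp3 at 1.37 FPKM. Just outside were Gsto2 at 0.52 FPKM, Sult2b1 (a cholesterol sulfotransferase) at 0.337 FPKM and Sult5a1 at 0.325 FPKM. Of 18 members under the filter 9 averaged at least 0.1 FPKM, and 3 of those did not overlap. Among all genes that passed the filter 65.1% did not overlap, and the share among genes under it was not computed. Sult4a1, a brain sulfotransferase, was at 0.05, 0.03 and 0 FPKM in PR3 KO, against 0.12, 0.36 and 0.25 FPKM in WT. Ugt2b35 was at 0.16, 0.12 and 0.12 FPKM in PR3 KO, against 0.26, 0.21 and 0.40 FPKM in WT. Ugt2a3 was at 0.29, 0.35 and 0.45 FPKM in PR3 KO, against 0.18, 0.13 and 0.20 FPKM in WT. The exact two-sided permutation p was 0.1 for each, the smallest possible, so no call can be made. Sult1e1, the oestrogen sulfotransferase, reached 0.06 FPKM in WT 1 and was listed at 0 in the other libraries. Sult2a4 was listed at 0 in all libraries, and 9 members, 8 of them Sult2a and Sult3a genes and the ninth Ugt2b1, had no value in any.

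Genes that supply or follow conjugation were read from lists of 6 to 16 tested genes, and they did not move as one. For glutathione synthesis and breakdown 4 of 11 rose and 0 fell, beside 11.7% and 41.1% of all genes, with a median log2 fold change of 0.36. Anpep, which trims cysteinylglycine, rose by 1.15 (limma adjusted p = 0.00848), Oplah (oxoprolinase) by 0.63 (adjusted p = 0.0126), Gss (glutathione synthetase) by 0.78 (adjusted p = 0.0222) and Ggt1 (gamma-glutamyltransferase, also on the tubule marker list) by 0.69 (adjusted p = 0.0387). Without PR3 KO 1 or PR3 KO 3 the count was 2, where 917 and 943 of all 12388 genes rose. Gss then had adjusted p-values of 0.0653 and 0.0711, and Ggt1 was lost without any PR3 KO library or WT 3 (0.0506 to 0.101). For UDP-glucuronate supply 0 of 6 rose, and Gusb, the lysosomal enzyme that cleaves glucuronides, fell (-0.59, adjusted p = 0.0120), a call lost with median-of-ratios scaling (-0.27, adjusted p = 0.0933), where 3 rose instead. With that scaling 25.4% of all genes rose. Without WT 1 the count that rose was 2, where 1514 of all 12388 genes rose.

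For PAPS supply 3 of 8 rose and 2 fell, where 11.7% of all genes rose and 41.1% fell. Slc13a1, the sulfate transporter of the proximal tubule brush border, rose by 1.43 (limma adjusted p = 0.000684) and Papss2, which makes PAPS, by 0.88 (adjusted p = 0.00651). Slc35b3, which carries PAPS into the Golgi, fell (-0.66, adjusted p = 0.00161), as did the Golgi phosphatase Bpnt2 (-0.37, adjusted p = 0.0131), the second not after median-of-ratios scaling (-0.06, adjusted p = 0.634). The microsomal and prostaglandin glutathione transferases gave 2 rises and 3 falls among 7, the falls again near the share in all genes (41.1%). Hpgds (prostaglandin D synthase, -0.98, adjusted p = 0.00647 by limma), Alox5ap (-1.67, adjusted p = 0.00665) and Ltc4s (leukotriene C synthase, -0.66, adjusted p = 0.00729) fell, and Ptges2 rose (0.56, adjusted p = 0.00289). Hpgds averaged 0.357 FPKM in PR3 KO and 1.72 FPKM in WT, so it passed the filter only through WT. Ltc4s lost its call with median-of-ratios scaling (-0.33, adjusted p = 0.0718). The count that rose was 1 without any one of PR3 KO 1, 2 or 3, WT 1 or WT 2. Over all 12388 genes 917 to 1514 rose in those fits. Macrophage markers, all 12 of which fell, moved with the falling genes, their summed level being 93.2 to 148 FPKM in PR3 KO and 662 to 1405 FPKM in WT, none at 0 in any library. Among these markers Fcgr1 averaged 0.477 FPKM in PR3 KO and 6.52 FPKM in WT, so it passed the filter only through WT. The part of the macrophage markers in these falls was not tested.

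Among 16 other phase II enzymes 8 rose and 0 fell, beside 11.7% and 41.1% of all genes, with a median of 0.90. The largest was Inmt, an amine methyltransferase, by 1.72 (limma adjusted p = 0.00617), and the acyl-CoA synthetases Acsm1, Acsm5 and Acsm2 (the last also on the tubule marker list) rose by 1.22 (adjusted p = 0.00254), 1.17 (adjusted p = 0.00257) and 0.95 (adjusted p = 0.0190). Without PR3 KO 1 or PR3 KO 3 the count was 3, where 917 and 943 of all 12388 genes rose. Acsm2 did not pass in limma without any one of the PR3 KO libraries (adjusted p = 0.0518 to 0.0545). Of 6 conjugate exporters 3 rose and 1 fell, beside the same shares of all genes. Abcc2, the apical glucuronide and glutathione conjugate pump, rose by 0.70 (adjusted p = 0.0144), Abcc6 by 0.75 (adjusted p = 0.00470) and Abcg2 by 0.55 (adjusted p = 0.0436), while Abcc1, a pump of the basolateral and leukocyte membrane, fell (-0.80, adjusted p = 0.00514). Without PR3 KO 1 the count that fell was 2, where 3837 of all 12388 genes fell. Abcg2 was lost in limma without any one of the PR3 KO libraries (adjusted p = 0.0835 to 0.121).

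Of 15 transcriptional regulators of conjugation genes 6 rose and 6 fell, beside 11.7% and 41.1% of all genes, so the falls were about as frequent as in all genes. Ppara, the fatty acid receptor, rose by 1.67 (limma adjusted p = 0.000838). Ahr, the dioxin receptor, fell (-0.97, adjusted p = 0.00161), as did Bach1, a repressor at antioxidant response elements (-0.80, adjusted p = 0.00418). Nfe2l2, which encodes Nrf2 and was chosen after its value was seen, was at 37.8 ± 2.9 FPKM in PR3 KO and 59.6 ± 11 FPKM in WT (SD, n = 3 each; -0.63, adjusted p = 0.00748), and did not pass with median-of-ratios scaling (-0.31, adjusted p = 0.0689), under which 2 regulators fell.

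The promoter windows of the members were searched for the core motifs of the antioxidant and dioxin response, within 250 bases upstream of the RefSeq start (GRCm38.p6) on both strands. Windows were found for 33 of the 37 tested genes, 42 windows in all. The antioxidant response element core TGACNNNGC was in 3 of 42 (7.14%) and in 10.2% of all 32851 windows. The xenobiotic response element core GCGTG was in 10 of 42 (23.8%) and in 28.2% of all. A match is a run of letters and not a bound site. The windows around the antioxidant response element matches are shown because Nfe2l2 and Bach1 encode factors known to bind this element. They lie at chr1:21240444-21240492 and chr3:107895792-107895840 (plus strand) and at chr3:107931715-107931763 (minus strand), with the match in capitals.
Gsta3: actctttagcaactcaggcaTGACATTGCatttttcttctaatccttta
Gstm5: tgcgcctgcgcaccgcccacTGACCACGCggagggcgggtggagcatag
Gstm7: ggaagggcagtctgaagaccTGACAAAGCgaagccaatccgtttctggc
Of these 3 genes Gstm7 rose, and Gsta3 and Gstm5 did not pass.

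Both the members and the proximal tubule markers were mostly higher in PR3 KO, and their order over the libraries is described here. The tubule score, the mean log2(FPKM + 1) of the markers, was 8.06, 8.04 and 8.10 in PR3 KO libraries 1, 2 and 3, against 7.50, 6.81 and 7.18 in WT libraries 1, 2 and 3, a difference of 0.91. Of the 37 members 7 had a log2 fold change above that difference (Gstp2, Gstt2, Gstz1, Ugt2b34, Ugt2b38, Ugt3a1 and Ugt3a2), 19 lay between 0 and it, and 11 were below 0. Within WT, 25 of 37 members (67.6%) were lowest in WT 2, the library with the lowest score, against 28.5% of all genes. Within PR3 KO, 22 of 37 (59.5%) were lowest in PR3 KO 2, against 25.04% of all genes. Highest within WT were 22 of 37 members in WT 3 and 11 in WT 1, the WT library with the highest score. Among all 12388 genes 2976 were highest in WT 3 and 3067 in WT 1. Genes of the same libraries are not replicates, and what sets this order was not tested. The mean log2(FPKM + 1) of the Ugt genes was 4.57 in WT 1 and 4.61 in WT 3. It was 4.41, 4.25 and 4.67 in PR3 KO libraries 1, 2 and 3. With the score as a covariate limma called 0 members and 0% of the 12388 genes, and 6 members and 1266 genes had an unadjusted p under 0.05. The score and the genotype are nearly the same variable in these libraries (Pearson correlation 0.915 over 6 libraries, a description only), so the proximal tubule score and genotype cannot be told apart here. Of 12 loop, distal tubule and collecting duct markers 6 fell and 0 rose, where 41.1% of all genes fell, so the count is near that share. Their median log2 fold change was -0.61, with sums of 795 to 1217 FPKM in PR3 KO and 1285 to 1641 FPKM in WT. With median-of-ratios scaling 2 of the 12 fell, beside 22.3% of all genes.

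**Figure D5:**
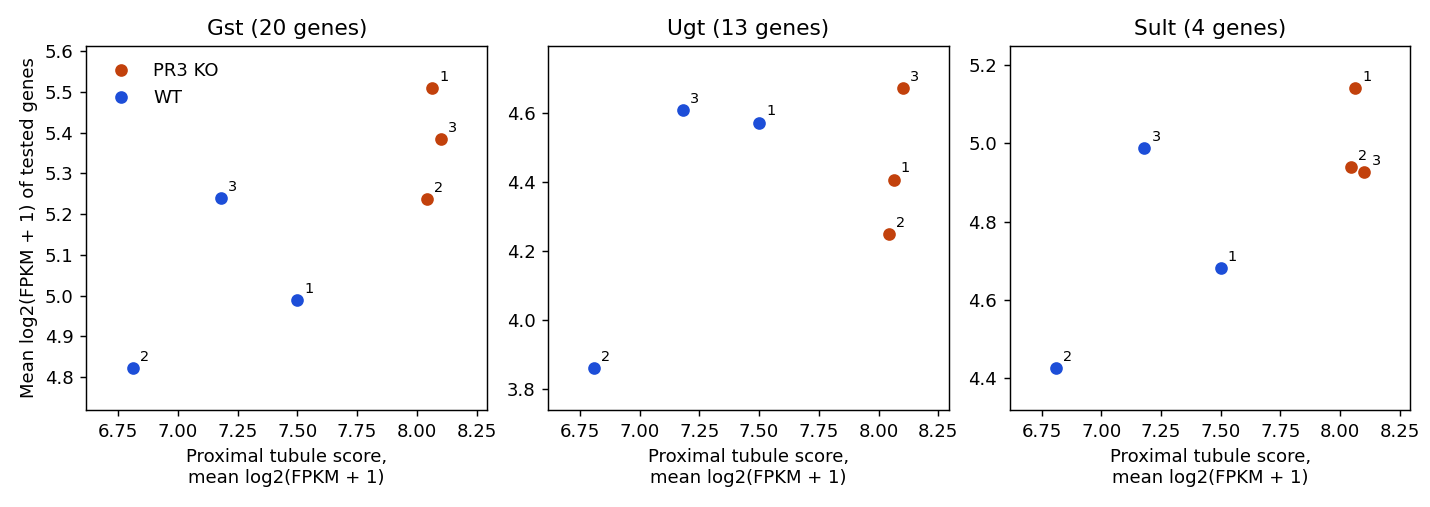
Mean log2(FPKM + 1) of the tested Gst, Ugt and Sult genes (vertical axis of each panel) against the proximal tubule score (horizontal axis), with a numbered point for each PR3 KO and WT library. The score is 8.04 to 8.10 in PR3 KO and 6.81 to 7.50 in WT, and WT 2 has the lowest score and the lowest mean of every family.

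Sequence sharing bears on which rises can be assigned to a single gene. Of the 15 members that rose, 9 had under 1% of their transcript in runs of 50 bases shared with another gene, namely Gstk1, Gstm4, Gstm7, Gstp3, Gstt1, Gstt2, Gstz1, Sult1b1 and Sult1c2. Only Gstp2 of the 15 had over 50%. Of the 3 that fell, Ugt1a10 had 66.2% and Gstm2 9.36%.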

How the data were processed

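Libraries were made from total RNA purified on oligo(dT) beads and sequenced on the DNBSEQ platform, per the labels' protocols. The authors deposited 1 table per library with an FPKM value per Entrez gene ID, per the file headers. Bowtie2 and GRCm38.p6 are named, per the submitters' processing notes, while for counting tool, annotation and strand the answer is: not given in the sources used here. FPKM values are not counts, so depth is known only from the lowest steps. IDs were given symbols from RefSeq (GRCm38.p6), and 52 of the IDs with a value had none. Of 22064 IDs, 3242 had no value in any library.

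PR3 KO was compared with WT (3 libraries each) by limma 3.58.1 (trend and robust, statmod 1.5.0) in R 4.3.3 on log2(FPKM + 1), on 12388 genes averaging 1 FPKM or more, with Benjamini-Hochberg adjustment at 0.05. Fold changes on this scale understate the change of low genes. The fit was tested on simulated data. Members from 0.1 FPKM up to the filter had exact two-sided permutation tests of the difference in mean FPKM, in Python 3.11.15 with NumPy 2.4.6. Sequences came from GENCODE M21 and RefSeq.

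Named in full were the 10 largest non-overlapping changes past the threshold in each direction, the 6 most abundant members and the most abundant of each class, and, from other lists, up to 4 genes with the smallest adjusted p. Members and lists were chosen with earlier results of these data known. Alternatives were other pseudocounts, filters, scalings, variance settings, a replicate block, left-out libraries and the tubule score as a covariate. One regulator on the lists, and the motif search tied to it, are not reported here.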

Additional observations from a re-analysis of the deposited data

How the results depend on the processing

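The count of members that rose, 15, ranged from 9 to 16 with each library left out and was 0 with the tubule score as a covariate; elsewhere it was 11 to 18. The count that fell, 3, was 0 with median-of-ratios scaling, 5 with equal FPKM sums, 1 to 4 with each library left out and 0 with the covariate. Over all 12388 genes 1454 rose and 5091 fell with all libraries. With each library left out 917 to 1514 of them rose and 3837 to 4764 fell. Equal FPKM sums gave 896 rises and 6324 falls over all genes, and median-of-ratios scaling 3149 and 2767. The median log2 fold change, 0.43, was 0.11 with no filter, 0.76 with median-of-ratios scaling, 0.28 to 0.50 with each library left out and -0.14 with the covariate. Relative to all genes it was 0.68, and 0.22 with no filter, 0.50 to 0.78 with each library left out and 0.017 with the covariate. Under the covariate the sign turned for 12 of the 19 members that had not passed, and among those that had passed for Gstm4 (-0.43), Sult1a1 (0.066), Sult1b1 (-0.019), Ugt2b38 (-0.90), Ugt3a1 (-0.12) and Ugt3a2 (-0.15), and among the other pathway genes named for Anpep (-0.36), Oplah (-0.13), Gss (-0.46), Ggt1 (-0.55), Acsm2 (-0.56), Abcc2 (-0.13), Abcg2 (-0.41) and Nfe2l2 (0.010). The covariate is nearly collinear with genotype. Ggt1 and Acsm2 are themselves markers in the score, so part of their change under the covariate was built in. Of the members that rose, 9 of 15 kept their call with each library left out and with both scalings, and of those that fell 1 of 3 kept it with each library left out and 0 also with both scalings. Deviations of same-numbered libraries correlated at 0.07, 0.27 and -0.09, and those of differently numbered ones at -0.26 to 0.32. With 3 libraries per genotype these values cannot decide whether the samples were paired by replicate number. A fit with this number as a block had 18 members that rose and 4 that fell, beside 1550 and 5143 of all 12388 genes. Depth limits the members under 1 FPKM, which are a few steps above 0.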
